A study of Mus musculus with 4 samples.

Results

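The genes described here are Sox5, Sox6 and Sox13, the SoxD group of the SOX transcription factor family, and Sox8, Sox9 and Sox10, the SoxE group. They are 6 of the 26031 genes of the annotation used. They were chosen with earlier results of these data known, Sox5 being already among the genes with many altered bins in embryonic stem cells. Their counts of altered bins are therefore a description and carry no test. The study profiled 5-hydroxymethylcytosine (5hmC), which TET enzymes make by oxidising 5-methylcytosine, by tagging it with a modified glucose, biotinylating it, capturing the fragments and sequencing them. There were 4 groups of 1 library each: LSH knockout and wild-type mouse embryonic stem (ES) cells, grown with LIF, and LSH knockout and wild-type mouse embryonic fibroblasts (MEFs). LSH, the product of Hells, is a chromatin remodeler of the SNF2 family. The sources used here do not give the allele, the number of lines or the embryo stage. The data are 2 lists of 5 kb genome bins (build mm9), 1 for ES cells and 1 for MEFs, in which the authors found 5hmC to differ between LSH knockout and wild-type cells.

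The lists hold positions only. They give no direction, level, fold change or p-value for a bin, and the sequencing depth is unknown. A bin is therefore called listed, whichever way 5hmC moved in the knockout, and the cell labels and the loss of LSH could not be checked against marker levels. A listed bin was assigned to a gene when it overlapped the gene body or the 20 kb either side of it. Intervals in brackets are exact 95% binomial intervals over bins. They cover counting error only, because neighbouring bins are not independent and each group has 1 library. With 1 library a group, the cell type, the culture and the making of each list cannot be told apart in a difference between the ES and MEF lists.

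SOX proteins bind DNA through an HMG box, which inserts into the minor groove and bends the helix. SoxD proteins have no known activation domain of their own and pair with each other through a coiled coil. In cartilage SOX5 and SOX6 act together with SOX9, the factor that specifies chondrocytes, on genes such as those of the cartilage matrix. SOX10 and SOX8 act in the neural crest and in glia, where SOX5 and SOX6 can oppose SoxE factors. Cytosine hydroxymethylation in mammals lies mainly at CpG dinucleotides and is often found in gene bodies and at enhancers.

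The sequences printed here are the 300 bases with the most CpG in 6 listed bins, outside exons, read along the direction of transcription (the minus strand in each) from mm9, with each CG in capitals. They were chosen to show a touching pair of ES and MEF bins, the ES bin nearest the main coding start of Sox5, a pair of Sox6 bins around an internal start, and the bin of Sox13.
Sox5 ES bin of the touching pair, chr6:144323795-144324094: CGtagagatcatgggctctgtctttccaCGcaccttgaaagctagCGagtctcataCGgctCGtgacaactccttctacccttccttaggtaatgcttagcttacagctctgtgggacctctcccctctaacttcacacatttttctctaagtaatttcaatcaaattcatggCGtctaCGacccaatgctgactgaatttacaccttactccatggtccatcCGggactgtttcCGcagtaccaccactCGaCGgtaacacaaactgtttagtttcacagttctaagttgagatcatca
Sox5 MEF bin of the touching pair, chr6:144328801-144329100: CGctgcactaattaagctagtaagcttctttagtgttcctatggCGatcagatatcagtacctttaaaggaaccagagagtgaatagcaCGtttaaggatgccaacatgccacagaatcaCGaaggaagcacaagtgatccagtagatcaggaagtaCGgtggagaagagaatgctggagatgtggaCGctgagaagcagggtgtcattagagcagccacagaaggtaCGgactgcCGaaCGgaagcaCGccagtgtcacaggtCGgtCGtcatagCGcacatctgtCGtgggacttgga
Sox5 ES bin inside the coding gene, chr6:144144562-144144861: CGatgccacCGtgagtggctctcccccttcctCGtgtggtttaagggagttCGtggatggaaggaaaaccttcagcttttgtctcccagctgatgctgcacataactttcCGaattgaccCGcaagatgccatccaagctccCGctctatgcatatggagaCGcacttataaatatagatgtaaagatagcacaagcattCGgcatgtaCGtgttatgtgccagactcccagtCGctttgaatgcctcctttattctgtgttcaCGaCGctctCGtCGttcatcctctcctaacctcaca
Sox6 MEF bin before the internal start, chr7:122973910-122974209: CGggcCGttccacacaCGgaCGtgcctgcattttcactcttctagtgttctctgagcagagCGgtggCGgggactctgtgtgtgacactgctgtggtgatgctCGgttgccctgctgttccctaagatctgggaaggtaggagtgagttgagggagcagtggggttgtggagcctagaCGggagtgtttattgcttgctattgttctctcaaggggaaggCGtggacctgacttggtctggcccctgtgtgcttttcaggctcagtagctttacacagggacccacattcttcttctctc
Sox6 MEF bin after the internal start, chr7:122950390-122950689: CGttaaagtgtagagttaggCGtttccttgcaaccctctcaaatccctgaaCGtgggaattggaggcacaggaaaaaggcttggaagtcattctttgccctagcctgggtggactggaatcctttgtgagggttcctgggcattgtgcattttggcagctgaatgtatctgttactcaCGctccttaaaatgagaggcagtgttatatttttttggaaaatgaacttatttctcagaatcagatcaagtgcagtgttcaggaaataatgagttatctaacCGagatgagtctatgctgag
Sox13 ES bin, chr1:135314699-135314998: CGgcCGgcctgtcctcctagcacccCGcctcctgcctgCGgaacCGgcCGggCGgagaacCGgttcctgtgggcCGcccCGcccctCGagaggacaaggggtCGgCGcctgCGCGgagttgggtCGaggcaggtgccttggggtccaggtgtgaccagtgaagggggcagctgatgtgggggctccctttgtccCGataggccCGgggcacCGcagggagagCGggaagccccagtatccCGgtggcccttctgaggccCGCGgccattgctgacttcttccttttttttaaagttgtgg
The stretch of the Sox13 bin held 23 CpG and was 68.3% GC. Of all bins with sequence, 3.64% held a 300-base stretch with at least as many CpG. The touching Sox5 bins held 11 and 14 (21.8% and 11.6% of all bins), and the ES bin inside the coding gene held 15 (9.77%). The Sox6 bin before the internal start held 9, a number reached by 35.1% of all bins. The one after it held 5, a number reached by 81.5% of all bins. The median of the whole ES list was 11 CpG and that of the whole MEF list 9, against 7 over all bins.

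Most listed bins lay in the long SoxD genes Sox5 and Sox6, and the SoxE genes had 1. Sox5 had 9 ES bins and 5 MEF bins. Sox6 had 0 ES bins and 5 MEF bins. Sox13 had 1 ES bin and 0 MEF bins. Sox8 had 0 ES bins and 1 MEF bin, and Sox9 and Sox10 had 0 in either list. In total the SoxD windows held 10 bins of each list among 341 bins, a listed share of 2.93% [1.42% to 5.33%] in both, beside 1.67% of all bins for ES cells and 1.75% for MEFs. The SoxE windows held 0 ES bins of 30 (0% [0% to 11.6%]) and 1 MEF bin of 30 (3.33% [0.0844% to 17.2%]). These SoxE intervals take in the SoxD shares and the shares of all bins, so the SoxE genes could not be told apart from the SoxD genes per bin. Of all genes, 33.1% had an ES bin in the body or flanks, 22.8% had a MEF bin and 11.5% had both. Among the 6 genes, Sox5 and Sox13 had an ES bin, Sox5, Sox6 and Sox8 had a MEF bin, and Sox5 alone had both.

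**Figure D1:**
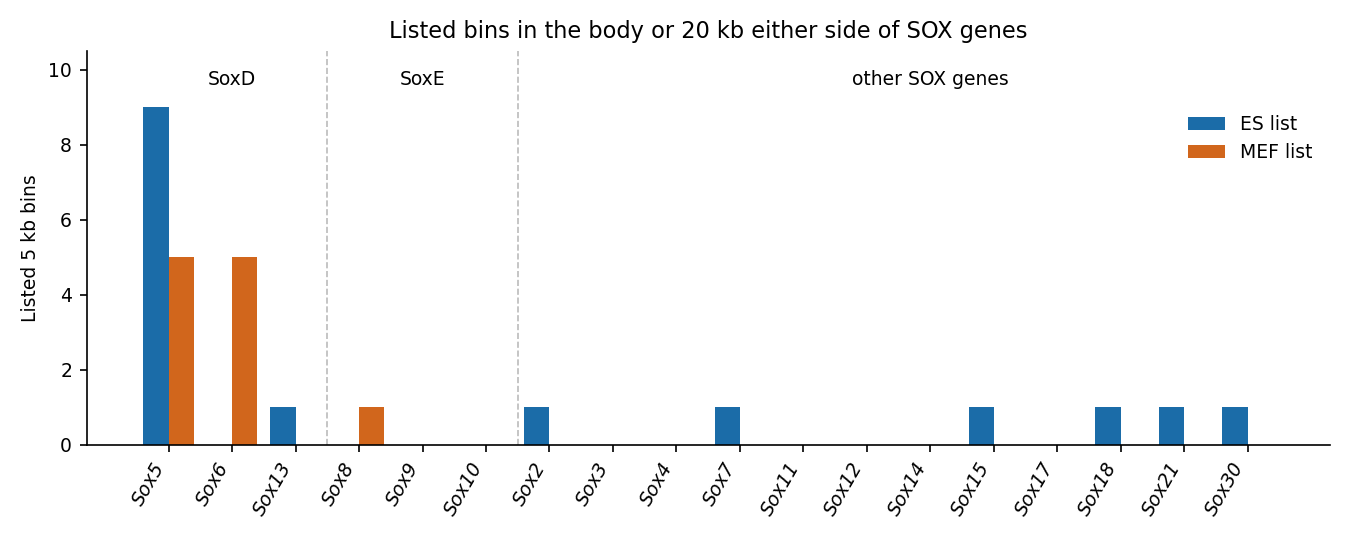
Number of listed 5 kb bins (vertical axis) in the body or 20 kb either side of each SOX gene, with the ES list in blue left of the MEF list in orange. Sox5 has 9 ES and 5 MEF bins and Sox6 has 5 MEF bins and no ES bin. No other gene drawn has more than 1 bin in either list.

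Gene length sets how many bins a gene offers. Sox5 (chromosome 6, 143776945 to 144730497, minus strand) spans 954 kb and its window holds 200 bins, and Sox6 (chromosome 7, 122614858 to 123182258, minus strand) spans 567 kb with 123. Sox13 (chromosome 1, 135278880 to 135320954) spans 42.1 kb with 18 bins. Sox8 (chromosome 17, 25702837 to 25707631), Sox9 (chromosome 11, 112643538 to 112649074) and Sox10 (chromosome 15, 78985343 to 78994920) span 4.79, 5.54 and 9.58 kb with 10 bins each. Per bin of its window, Sox5 had 4.5% listed in ES cells [2.08% to 8.37%] and 2.5% in MEFs [0.817% to 5.74%]. Sox6 had 0% in ES cells [0% to 2.95%] and 4.07% in MEFs [1.33% to 9.23%]. The Sox6 ES interval takes in the 1.67% of all bins, so the absence of ES bins there is also what a window of this size can hold at the share of the whole list. Within each gene the ES and MEF intervals overlapped.

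Among genes of like length, few had as many ES bins as Sox5, which was chosen with many altered ES bins already known. Taken singly, neither count of Sox6 was rare. The 60 other genes of like length (763555 to 1139211 bp, with fewer than 10 genes inside) had a median of 0 ES bins (range 0 to 10) and 1 MEF bin (0 to 20). Of them 1 had at least 9 ES bins (1.67%) and 9 had at least 5 MEF bins (15.0%). These limits are the counts of Sox5 itself, so the shares carry no test. They also rest on the full gene length. With coding transcripts only, Sox5 had 3 ES bins and 2 MEF bins, and genes of that shorter length were not compared. The genes most like Sox5 in both counts were Arhgap26, with 8 ES and 5 MEF bins, Cdh13, which encodes T-cadherin, with 8 and 3, and Etl4, with 5 and 3. Around the length of Sox6 (454163 to 703019 bp) there were 146 other genes, with medians of 0 ES bins (0 to 10) and 0 MEF bins (0 to 22). Of these, 81 had no ES bin (55.5%), 25 had at least 5 MEF bins (17.1%) and 5 had both features (3.42%). Both limits are the counts of Sox6 itself, so the last share is a description and carries no test. The genes most like Sox6 were Pde4b, a cAMP phosphodiesterase gene, and Cdk14, a cyclin-dependent kinase gene, each with 0 ES and 5 MEF bins, and Slc9a9, a sodium-proton exchanger gene, with 0 and 4. Likeness is the summed absolute difference in the ES and MEF counts, so it rests on 2 values a gene.

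**Figure D2:**
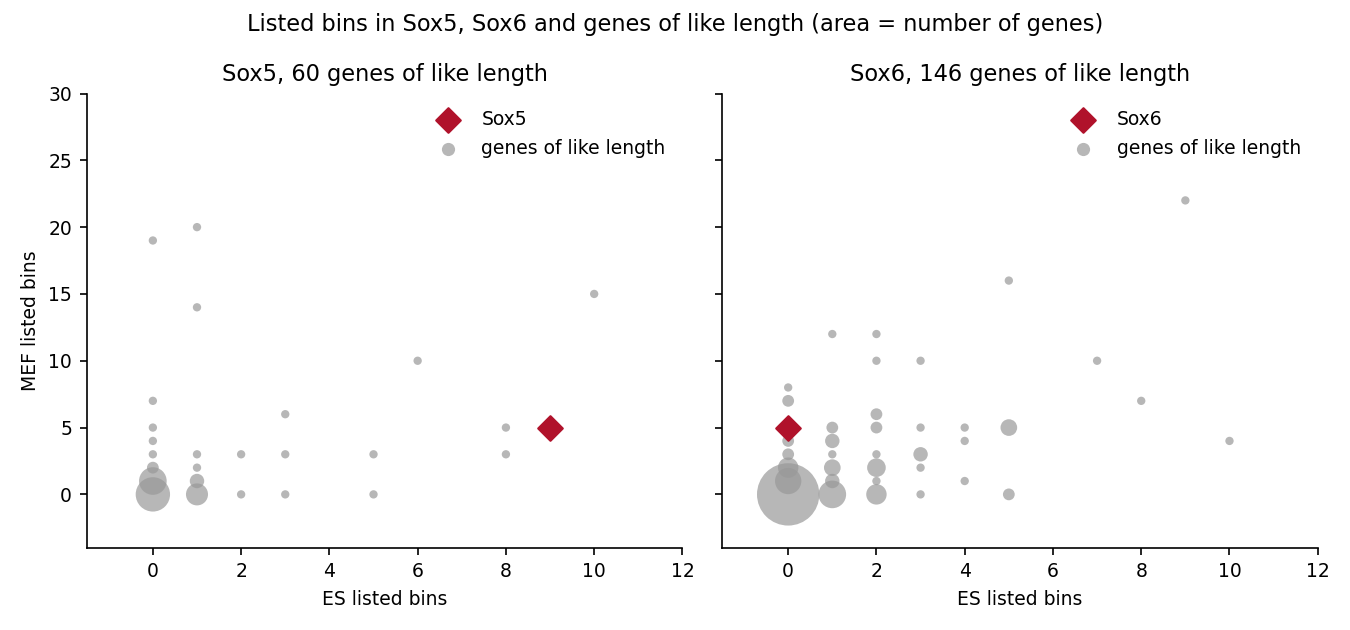
ES listed bins (horizontal axis) against MEF listed bins (vertical axis) for genes of like length, where the area of a grey point grows with the number of genes at that pair of counts. The red diamonds are Sox5 at 9 ES and 5 MEF bins and Sox6 at 0 and 5, and most grey points lie at or near 0 on both axes.

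Along Sox5 the listed bins were spread over 805 kb of the gene, from near its first annotated start to well inside the coding transcripts. Sox5 is transcribed from several starts. The longer coding transcripts begin between 144157972 and 144158078, and a group of short ones begins between 143895608 and 143895626. The 572 kb before the main coding start belong to 2 non-coding transcripts that begin at 144730497 and 144730439. This upstream part held 6 ES bins and 3 MEF bins among 114 bins, 5.26% [1.96% to 11.1%] and 2.63% [0.546% to 7.5%]. The part covered by coding transcripts held 3 ES bins and 2 MEF bins among 77 bins, 3.9% [0.811% to 11%] and 2.6% [0.316% to 9.07%]. With Sox5 defined by its coding transcripts and their 20 kb flanks, it had 3 ES bins and 2 MEF bins. So most of its listed bins depend on whether the non-coding transcripts are counted as Sox5.

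The upstream part began with 3 bins near the first start. The bin that both lists hold was at 144700001 to 144705000, centred 28 kb from the first annotated start. Its ES neighbour at 144675001 to 144680000 was centred 53 kb from that start and its MEF neighbour at 144715001 to 144720000 was 13 kb from it. The shared bin and the ES neighbour also overlapped Gm15686, a non-coding gene inside Sox5, and 112 bp of the ES neighbour lay in its exon 2. All 3 bins lay in intron 1 of the longest transcript. Of the whole ES list 4.75% of bins were also on the MEF list, and in Sox5 this was 1 of 9 ES bins.

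Further along, ES bins at 144415001 to 144420000 and 144400001 to 144405000 lay 313 and 328 kb from the first start, in intron 3. The ES bin at 144320001 to 144325000 touched the MEF bin at 144325001 to 144330000, and these were centred 408 and 403 kb from the first start. Another ES bin, at 144245001 to 144250000, lay 483 kb from it. These 3 bins were in intron 4, of 279201 bp, as was the first ES bin of the coding part.

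In the coding part, the ES bin at 144140001 to 144145000 lay in intron 1 of the coding transcripts, with its nearer edge 13.0 kb after a main coding start. It was the ES bin nearest to that group of starts. The MEF bin at 143985001 to 143990000 overlapped exon 4 of the coding transcripts by 87 bp and was the only listed Sox5 bin over a Sox5 exon. The last 3 bins formed an unbroken run, with ES bins at 143915001 and 143920001 and a MEF bin at 143925001, in an intron of 62251 bp. The run lay before the starts of the short coding transcripts, and its nearest edge was 19.4 kb from them. In Sox5 2 of the 9 ES bins directly touched a MEF bin, beside 7.67% of the whole ES list, and 2 of the 5 MEF bins touched an ES bin, beside 7.33% of the whole MEF list.

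**Figure D3:**
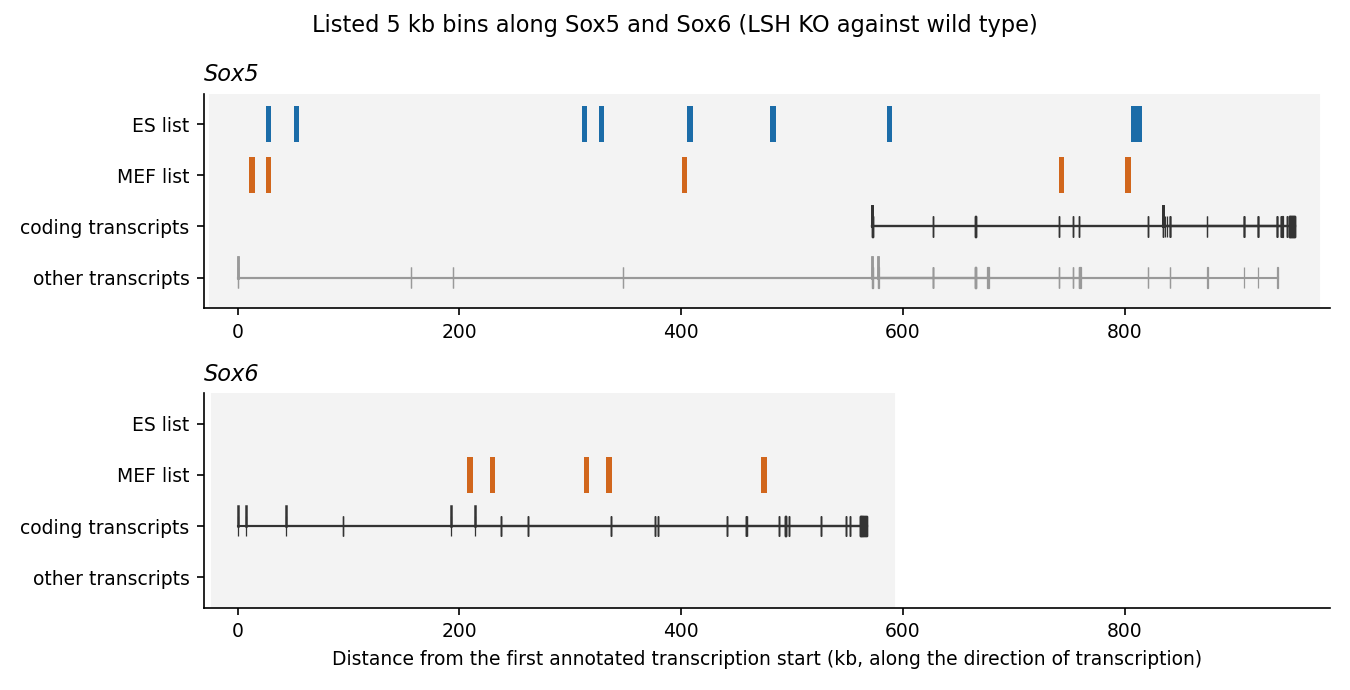
Positions of listed 5 kb bins of the ES list (blue) and MEF list (orange) along Sox5 and Sox6, in kb from the first annotated transcription start. Black and grey lines are coding and other transcripts with exons as ticks and starts as raised ticks, and the shaded area is the gene with its 20 kb flanks. Of the Sox5 bins, 6 ES and 3 MEF bins lie before the coding transcripts begin, and all 5 Sox6 bins are on the MEF list.

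In Sox6 the 5 MEF bins lay in the middle and later part of the gene, spread over 270 kb, the first of them centred 209.8 kb after the first start. Sox6 has coding starts at 123182258, 123174561, 123138600, 122989619 and 122968221. The bin at 122970001 to 122975000 ended 1.78 kb before the innermost start, and the bin at 122950001 to 122955000 began 13.2 kb after it. Both lay in intron 2 of the longest coding transcript, an intron of 142284 bp. The bin at 122865001 to 122870000 lay in intron 4, and the bin at 122845001 to 122850000 overlapped exon 5 by 90 bp. The last bin, at 122705001 to 122710000, lay in intron 9. The gaps between neighbouring Sox6 bins were 15 to 135 kb, so none touched. The nearest ES bin lay 103 kb upstream of Sox6, over an exon of Plekha7. Between the nearest coding genes on either side, Gm6816 and Gm4353, 10 of 232 bins were on the MEF list (4.31%) and 0 on the ES list. Within 250 kb of Sox6 there were 3 ES bins and 16 MEF bins among 215 bins, 1.4% and 7.44%. The shares were 0% and 3.87% within 100 kb, and 0.952% and 5.4% within 500 kb. Of all bins 1.67% were on the ES list and 1.75% on the MEF list.

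Sox13, the third SoxD gene, known for its part in gamma-delta T cells in mice, had its ES bin at 135310001 to 135315000 in intron 1. That bin began 5.95 kb after the first start of the gene. Its 16.6 CpG per kb and 54.3% GC were the highest of the SoxD listed bins. ES bins were dense around Sox13, with 6 ES bins and 1 MEF bin within 100 kb, 12% and 2% of 50 bins. Over wider flanks the ES share was lower, 7.27% within 250 kb and 6.19% within 500 kb. The MEF share there was 1.82% and 2.38%. Of all bins 1.67% were on the ES list and 1.75% on the MEF list.

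Of the SoxE genes, Sox8 alone had a listed bin. Its MEF bin at 25700001 to 25705000 overlapped 2164 bp of exon 3, the last exon, and ran on beyond the end of the gene. By its midpoint it lay outside the gene. Sox9, which specifies cartilage and the testis, had its nearest ES bin 256 kb downstream and its nearest MEF bin 25.9 kb downstream (112675001 to 112680000). Sox9 lies in a wide interval without coding genes, between Gm11678 and Slc39a11, at 351 and 457 kb. That interval held 3 ES bins and 3 MEF bins among 164 bins, 1.83% in each, close to the shares of all bins. Its 3 ES bins all lay downstream of Sox9, over the non-coding gene 2610035D17Rik, while its MEF bins lay 231 kb upstream of the start and 34 and 194 kb downstream of it. Sox10, the factor of neural crest and glia, had its nearest ES bin 90.1 kb upstream, in a promoter bin over Pick1, Slc16a8 and Baiap2l2, and its nearest MEF bin 45.3 kb downstream, at a promoter of Micall1. Between the nearest coding genes around Sox10, Polr2f and Pick1, 0 of 16 bins were on either list. Within 100 kb there were 1 ES bin and 2 MEF bins among 42 bins, 2.38% and 4.76%. The shares were 6.86% and 4.9% within 250 kb. Within 500 kb of Sox10 there were 16 ES bins and 9 MEF bins among 202 bins, 7.92% and 4.46%. Its wider neighbourhood was therefore not free of listed bins.

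**Figure D4:**
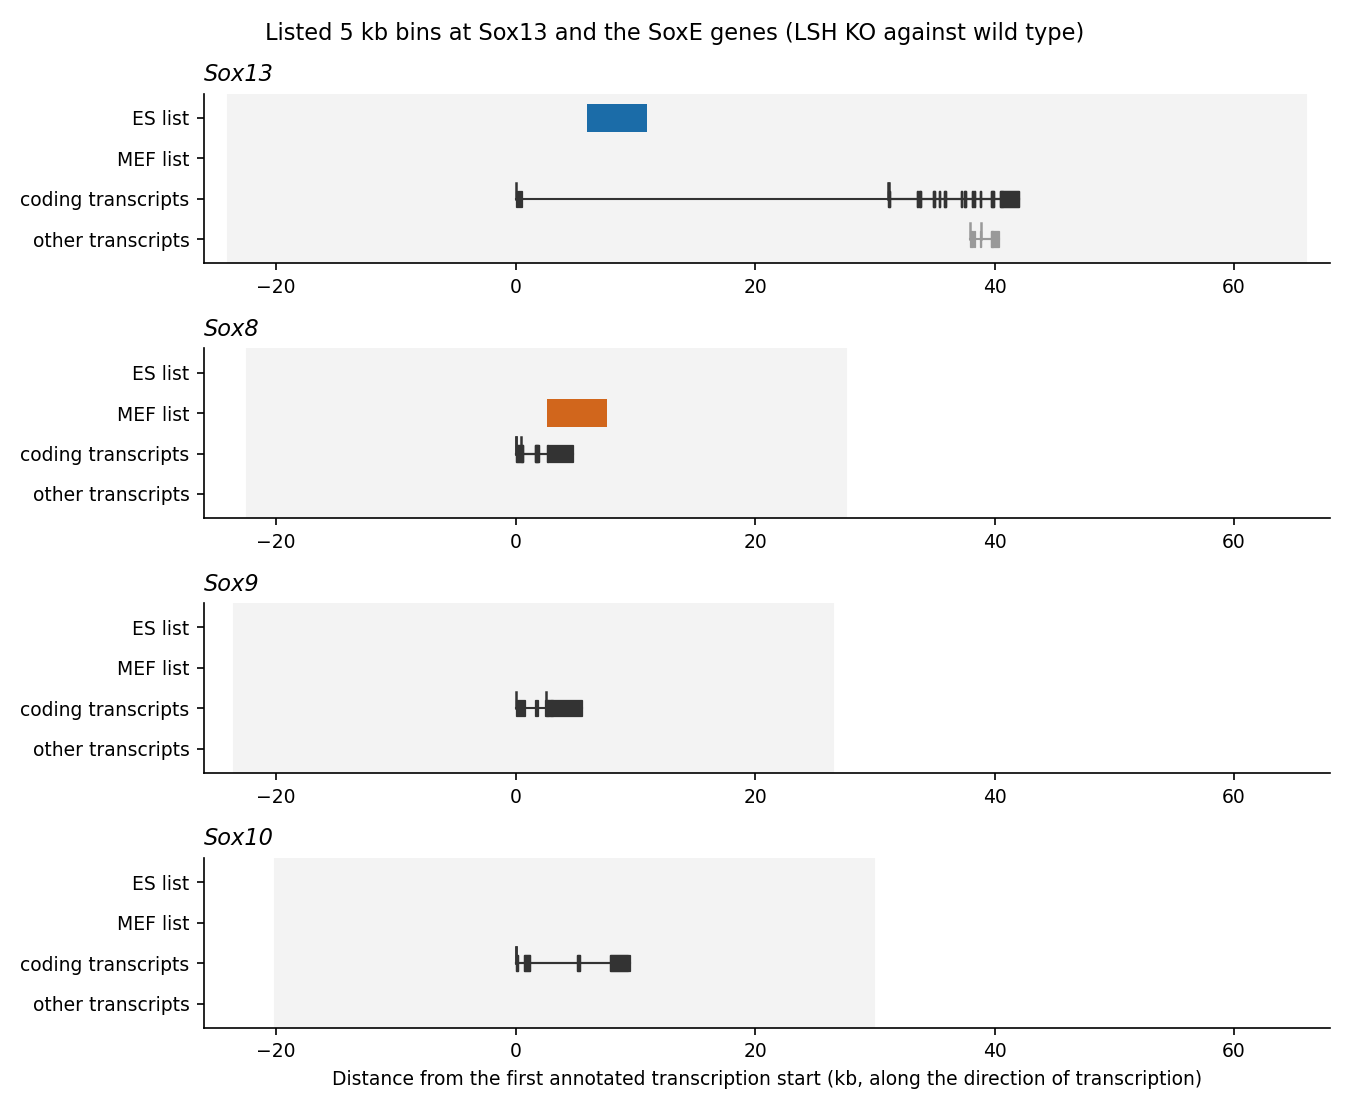
Listed bins of the ES list (blue) and MEF list (orange) at Sox13, Sox8, Sox9 and Sox10, in kb from the first annotated transcription start, with transcripts drawn below and the 20 kb flanks shaded. One ES bin lies in intron 1 of Sox13, 1 MEF bin lies over the end of Sox8, and the windows of Sox9 and Sox10 hold none.

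None of the promoters of the 6 genes were listed. Bins within 1 kb of any of their annotated starts numbered 23, and 0 of them were on either list [0% to 14.8%]. Over all genes, 3.55% of promoter bins were on the ES list and 2.57% on the MEF list, so 0 of 23 is near that background. These promoter bins were CpG-rich at the SoxE genes, with medians of 35.7 CpG per kb at Sox9 and 23 at Sox10 and with 34.2 at the only Sox8 bin. By any overlap, 9 of the 10 SoxD ES bins and 8 of the 10 SoxD MEF bins were intron bins, and 249 of the 341 bins in the SoxD windows (73%) were intron bins in all. The others overlapped an exon of Sox5, Sox6 or Gm15686. Of all intron bins 1.8% were on the ES list and 2.58% on the MEF list, and of all exon bins 3.19% and 2.03%.

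The listed bins of Sox5 had a higher median CpG density than its other bins, while in Sox6 the medians were nearly the same. In Sox5 the ES bins had 10.2 to 14.4 CpG per kb (median 12) and the MEF bins 11.2 to 15.8 (median 14.2), against 3.8 to 29 (median 10.6) in its 187 bins on neither list. The values overlap. When the 200 bins were ordered by CpG and divided into 3 near-equal groups, the lowest group held 0 listed bins, the middle group 3 ES bins and 1 MEF bin, and the highest 6 ES bins and 4 MEF bins. In Sox6 the MEF bins had 4.8 to 11.8 CpG per kb (median 6.4), against 3 to 37.4 (median 6) in the 118 bins on neither list. Its 5 MEF bins fell 2, 2 and 1 into the lowest, middle and highest groups. The Sox6 bin with 11.8 CpG per kb was the one before the innermost start, and 7 of 123 Sox6 bins had more. All ES bins of the genome had a median of 12.6 CpG per kb, all MEF bins 11 and all bins 7. GC content in Sox5 was alike, with medians of 42.3% in ES bins, 43.1% in MEF bins and 42.8% in bins on neither list.

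**Figure D5:**
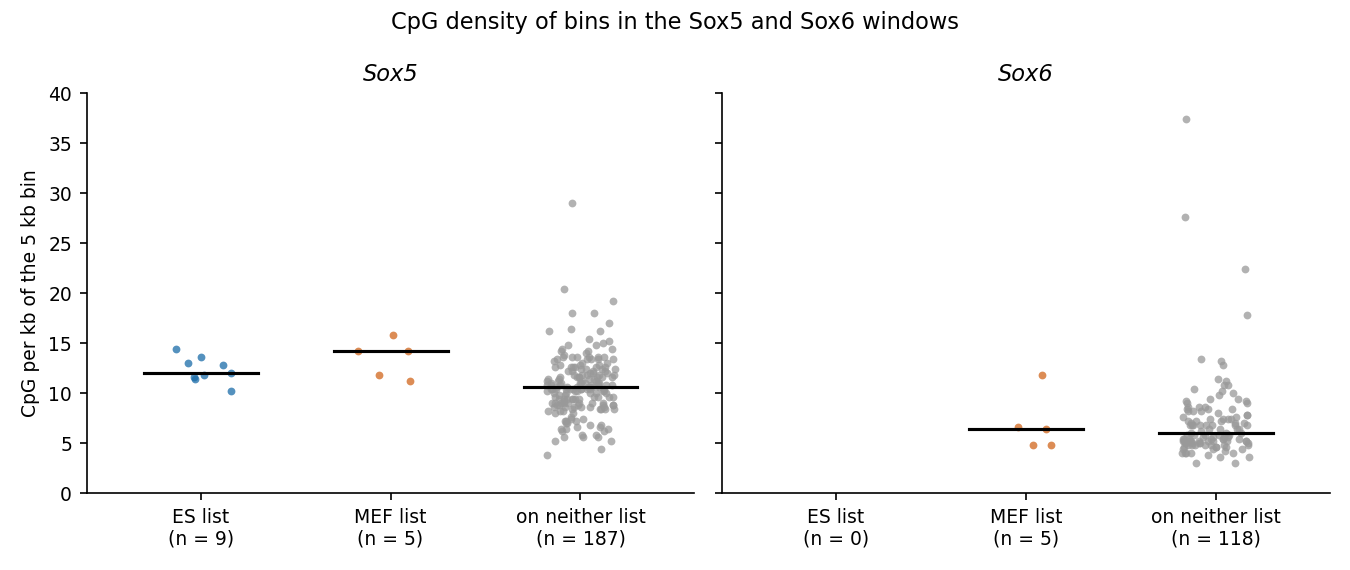
CpG per kb of each 5 kb bin in the Sox5 and Sox6 windows (vertical axis), for bins on the ES list (blue), on the MEF list (orange) and on neither (grey), with black lines at the medians and points spread sideways at random. In Sox5 the medians are 12, 14.2 and 10.6, and in Sox6 the MEF bins (6.4) and bins on neither list (6) have nearly the same median and there is no ES bin.

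Among the other SOX genes, 6 had 1 ES bin each and none of those matched had a MEF bin. Of 14 other SOX symbols 12 were matched in the annotation. Of these 12 genes, 6 had an ES bin (50%, beside 33.1% of all genes) and 0 had a MEF bin (beside 22.8%). The 6 genes are named here after their values were seen. The bins overlapped Sox7 (chromosome 14, 64560001 to 64565000), a factor of endoderm and vessels, and Sox15 (chromosome 11, 69465001 to 69470000), where the bin also lay over Fxr2. The others lay outside the gene bodies. They were 3.93 kb upstream of Sox2, the pluripotency factor gene, over the non-coding Sox2ot, 8.81 kb upstream of Sox30, 9.54 kb downstream of Sox18, over Prpf6, and 12.5 kb downstream of Sox21. The median length of these 12 genes was 3128 bp, against 13590 bp for all genes.

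Some genes of tissues in which SoxD and SoxE factors act, namely cartilage, neural crest and glia, and red blood cells, had listed bins. Of 15 cartilage genes, 6 had an ES bin (40%, beside 33.1% of all genes) and 5 a MEF bin (33.3%, beside 22.8%). Their median length was 27249 bp, against 13590 bp for all genes, and longer genes offer more bins. The shares of all genes given here are therefore not matched for length. Per bin, 2.48% of the 323 bins of the cartilage group were on each list, beside 1.67% of all bins for ES cells and 1.75% for MEFs. Runx2, a master factor of bone and of maturing cartilage, had 2 ES bins and 4 MEF bins. It spans 318811 bp and its window holds 73 bins. Runx3 had 2 ES bins and 1 MEF bin, 1 of them shared. As in Sox5, an ES bin of Runx2 (chromosome 17, 44835001 to 44840000) touched a MEF bin. ES and MEF bins also touched at Pou3f1 and in Zfpm1, described below. Runx3 and Kit had bins of both lists, but no ES bin lay directly beside a MEF bin there. Of the whole lists 7.67% of ES bins and 7.33% of MEF bins touched a bin of the other list. Touching bins were not counted over the gene lists, so these cases are examples only. Of 21 neural crest and glial genes, 4 had an ES bin (19%, beside 33.1% of all genes) and 5 a MEF bin (23.8%, beside 22.8%). Mbp, the myelin basic protein gene, had 0 ES bins and 3 MEF bins, all in introns. Kit, the receptor of stem cell factor, had 1 and 2. Pou3f1, a factor of Schwann cells, had 2 ES bins and 2 MEF bins, all outside its body. Of 8 partner and target genes of SOX6 in red blood cell development, 3 had an ES bin (37.5%, beside 33.1% of all genes) and 2 a MEF bin (25%, beside 22.8%). Zfpm1, the GATA cofactor FOG1 gene, had 2 ES bins and 5 MEF bins, 1 of them shared. The median count was 0 for both lists in the cartilage, neural crest and red blood cell groups, as over all genes. Median gene length was 17063 bp in the neural crest and glial group and 17071 bp in the red blood cell group. Hells itself had 0 listed bins in either list.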

How the data were processed

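The lists deposited by the authors hold positions of 5 kb bins called differential, with a running bin number, and no values other than these. Per the submitters' processing notes, the tools were BWA and SAMtools 1.3.1 and the build mm9, with no role stated. The sources used here do not give the counting, the caller, its threshold or any input library. Each of the 4 libraries is its own group, so no replicate error exists and no test between conditions was made.

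The reference was NCBIM37 (mm9) with GENCODE M1. All 8545 ES and 8972 MEF bin numbers on chromosomes 1 to 19 and X equalled the reference's cumulative numbering. Shares used the 511186 bins with at least 50% determined bases. Gene models of the types protein-coding, lincRNA and processed transcript were used, 1 per name. Bins were classed as promoter (within 1 kb of a start), otherwise exon, intron or intergenic, by any overlap. Positions are 1-based. The members, gene lists and the division of Sox5 at its coding start were chosen with earlier results of these data known. Named genes were the members, genes overlapped by their listed bins, list genes with at least 2 bins in a list, and the 3 genes nearest Sox5 and Sox6 in counts at like length with fewer than 10 other genes inside. Other SOX genes with 1 bin, genes under their bins, and genes beside or near the members were named after their values were seen. Older symbols were matched through a RefSeq table of GRCm38.p6, used for names only. Window counts were tested on simulated data and equalled the planted number in 200 of 200 windows. Alternatives were other flanks, bin midpoints, coding transcripts only, bins outside other coding genes, and other class rules. Python 3.11.15, numpy 2.4.6, pandas 2.3.3, scipy 1.17.1 and matplotlib 3.10.9 were used.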

Additional observations from a re-analysis of the deposited data

How the results depend on the processing

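Across other flanks, bin midpoints, coding transcripts and the removal of bins in other coding genes, 22 of 24 recomputed SoxD and SoxE totals stayed within 1.5 times the reported ones. This tally is weak evidence of stability. The SoxE ES total was 0 in every setting. All listed bins of the member genes overlapped the gene bodies, so smaller flanks could not change a count. With coding transcripts only, the SoxD ES count was 4 in place of 10, through Sox5, which had 3 ES bins in place of 9 and 2 MEF bins in place of 5; the non-coding upstream part is then left out. With 50 kb flanks the SoxE MEF count was 3 in place of 1, since Sox9 and Sox10 gained 1 MEF bin each, and Sox13 had 4 ES bins in place of 1. Sox6 had 0 ES bins under each of these settings. By bin midpoint 0 SoxD bins in either list were exon bins, and the Sox8 bin became intergenic. With promoters reaching 2 kb, 1 Sox6 MEF bin became a promoter bin. No paired analysis was possible because each group has 1 library. Depth and direction are unknown, so no count says whether 5hmC rose or fell, and an unlisted bin is not shown to be unaltered.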
